A study of Homo sapiens with 30 samples.

Results

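Sibjeondaebo-tang and Palmul-tang were compared at their high dose in A549, an epithelial cell line grown from a human lung carcinoma. The comparison holds 6 libraries of the 30 in the series. There were 3 libraries from cells given Sibjeondaebo-tang at 500 µg/mL and 3 from cells given Palmul-tang at 500 µg/mL. Both were ethanol extracts, and the cells were exposed for 24 h. Both formulas were also given at 20 and 100 µg/mL, with 3 libraries each, and 3 libraries came from cells given vehicle. The rest came from cells given ethanol extracts of Samul-tang, with 2 libraries per dose, or Sagunja-tang, with 1 per dose. Their doses were also 20, 100 and 500 µg/mL, and they entered the same fit. The vehicle was 0.1% DMSO per the sample labels, whereas the series text names another percentage. The libraries were chosen by formula and dose alone, and every gene was eligible. Nothing in the labels says that replicates came from separate cultures, so the p-values measure library-to-library spread, which may be technical. One carcinoma line stands in for no other tissue, and extract composition was not measured here.

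Both formulas are tonic mixtures of Korean medicine. Palmul-tang joins a pair of older formulas, Sagunja-tang and Samul-tang. Sibjeondaebo-tang adds astragalus root and cinnamon bark to the herbs of Palmul-tang, so the comparison sets a mixture against its own base with further herbs at the same total extract concentration. RNA-seq from bulk cultures reads the amount of each RNA relative to the rest. A lower value can come from less RNA per cell or from fewer cells that hold it, and these cannot be told apart.

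The 6 libraries had between 28797312 and 33053783 deposited counts, and replicate libraries correlated at 0.9966 to 0.9974 on the log2 scale. Levels are given as CPM, counts scaled to a common library size by TMM, which sets the typical gene equal between libraries. Markers of A549 cells were abundant. ALDH1A1, a retinal dehydrogenase, averaged 4369 CPM with Sibjeondaebo-tang and 4176 CPM with Palmul-tang, and AKR1B10, an aldo-keto reductase, averaged 4539 CPM with Sibjeondaebo-tang and 4422 CPM with Palmul-tang. Several alveolar type II markers were at or near 0. NKX2-1 averaged 0.601 CPM with Sibjeondaebo-tang and 0.872 CPM with Palmul-tang, and SFTPB averaged 0.390 CPM with Sibjeondaebo-tang and 0.475 CPM with Palmul-tang. Of 13 blood cell markers 5 could be tested and of 12 fibroblast and endothelial markers 6, and 0 in either list passed in edgeR, in DESeq2 or at an unadjusted p under 0.05. The blood markers summed to 29.2 to 40.5 CPM with Sibjeondaebo-tang and 29.4 to 37.5 CPM with Palmul-tang. The fibroblast and endothelial markers summed to 34.4 to 37.2 CPM with Sibjeondaebo-tang and 31.7 to 34.9 CPM with Palmul-tang.

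At 500 µg/mL the formulas gave different transcriptomes, and the differences were uneven in size. Of 17701 genes tested, 5360 (30.3%) passed an adjusted p of 0.05 in edgeR's quasi-likelihood test, of which 2531 (14.3%) were higher and 2829 (16.0%) were lower with Sibjeondaebo-tang. The higher genes had a median log2 difference of 0.21, and 7 of them (0.0395%) reached 2-fold. The lower genes had a median of -0.44, and 459 of them (2.59% of the genes tested) reached 2-fold. In 7239 genes (40.9%) the 3 libraries of a formula did not overlap the 3 of the other. Genes picked for naming had to meet this, so the lack of overlap in those genes was fixed in advance and is not further support. Log2 differences are Sibjeondaebo-tang minus Palmul-tang throughout. The split between directions depended on the scaling. With the plain library totals in place of TMM the median of all genes moved to -0.11, 454 genes passed as higher and 4591 as lower. All 454 were among the 2531. All 2829 lower genes stayed lower, which follows from the downward shift and is no check of them. Modest increases are therefore relative to the typical gene. Counts under library totals are given beside the lists with members that rose, and every list is to be read against the 14.3% higher and 16.0% lower of all genes. The lists and their members were chosen with earlier results of these data known, so their shares are a description and not independent support. Shares also moved with abundance and transcript length, as given below. Among the 2788 most abundant protein-coding genes 39.2% passed as higher, so a share above 14.3% is not by itself particular to a list of abundant genes.

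Of the 4 largest falls among the named genes, 3 were in GOLGA8A, HERC2P2 and GOLGA8B, which lie in duplicated segments of chromosome 15. GOLGA8A, a golgin-like gene at chr15:34379068-34437466 (GRCh38, minus strand), had 10.4, 13.1 and 12.01 CPM with Sibjeondaebo-tang, against 43.7, 62.3 and 45.3 CPM with Palmul-tang. Every Sibjeondaebo-tang library lay below every Palmul-tang library. The log2 difference was -2.09 ± 0.16 (SE, adjusted p = 2.15e-08), the largest fall among non-overlapping genes whose mean log2 CPM reached 2. Its neighbour and near copy GOLGA8B had 22.6, 22.2 and 20.1 CPM with Sibjeondaebo-tang, against 72.3, 70.9 and 73.6 CPM with Palmul-tang. The groups were wide apart again, with a log2 difference of -1.74 ± 0.12. HERC2P2, a transcribed pseudogene of the ubiquitin ligase HERC2 at chr15:22495570-22590815, had 31.6, 34.8 and 32.5 CPM with Sibjeondaebo-tang and 106.4, 121.1 and 122.7 CPM with Palmul-tang. Its log2 difference was -1.82 ± 0.11 (adjusted p = 2.67e-10). The parent HERC2 differed by -0.17 (adjusted p = 0.00377).

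The wider duplicon list holds the GOLGA8, HERC2, NPIP, NBPF, SMG1 and PKD1 copies. Of 61 members tested 46 (75.4%) fell, 0 rose, and 17 fell at least 2-fold, with a median log2 difference of -0.77. The summed level of the list was 576.6 to 584.2 CPM with Sibjeondaebo-tang, against 982.7 to 1048 CPM with Palmul-tang. NPIPA1 averaged 13.9 CPM with Sibjeondaebo-tang and 28.0 CPM with Palmul-tang, a log2 difference of -1.002. NBPF14, of the neuroblastoma breakpoint family, averaged 46.8 CPM with Sibjeondaebo-tang and 69.6 CPM with Palmul-tang, a log2 difference of -0.57. Members share long near-identical stretches, and RSEM divides shared reads among them, so the split between copies is uncertain and the members are not independent of each other. Across chromosome 15, 140 of 635 genes tested (22.0%) were lower and 66 were higher.

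Other protein-coding genes among the largest falls lay on several chromosomes, and those given here had low levels. More abundant protein-coding genes that fell at least 2-fold, such as LUC7L3, PNISR and CCNL2, are given below. SEC31B, a paralog of the COPII coat subunit SEC31A, had 2.49, 2.23 and 2.77 CPM with Sibjeondaebo-tang and 8.52, 10.8 and 12.3 CPM with Palmul-tang. Its log2 difference was -2.07 ± 0.20 (adjusted p = 1.74e-07). PABPC1L, a poly(A)-binding protein paralog, had 8.01, 9.80 and 10.1 CPM with Sibjeondaebo-tang and 25.2, 27.7 and 27.3 CPM with Palmul-tang, for a log2 difference of -1.52. In neither gene did the groups overlap. GABBR1 (a GABA-B receptor subunit), CSAD (a taurine synthesis enzyme), TRPV1 (the capsaicin-gated channel) and PAQR6 differed by -1.48, -1.41, -1.40 and -1.39 on the log2 scale.

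**Figure D1:**
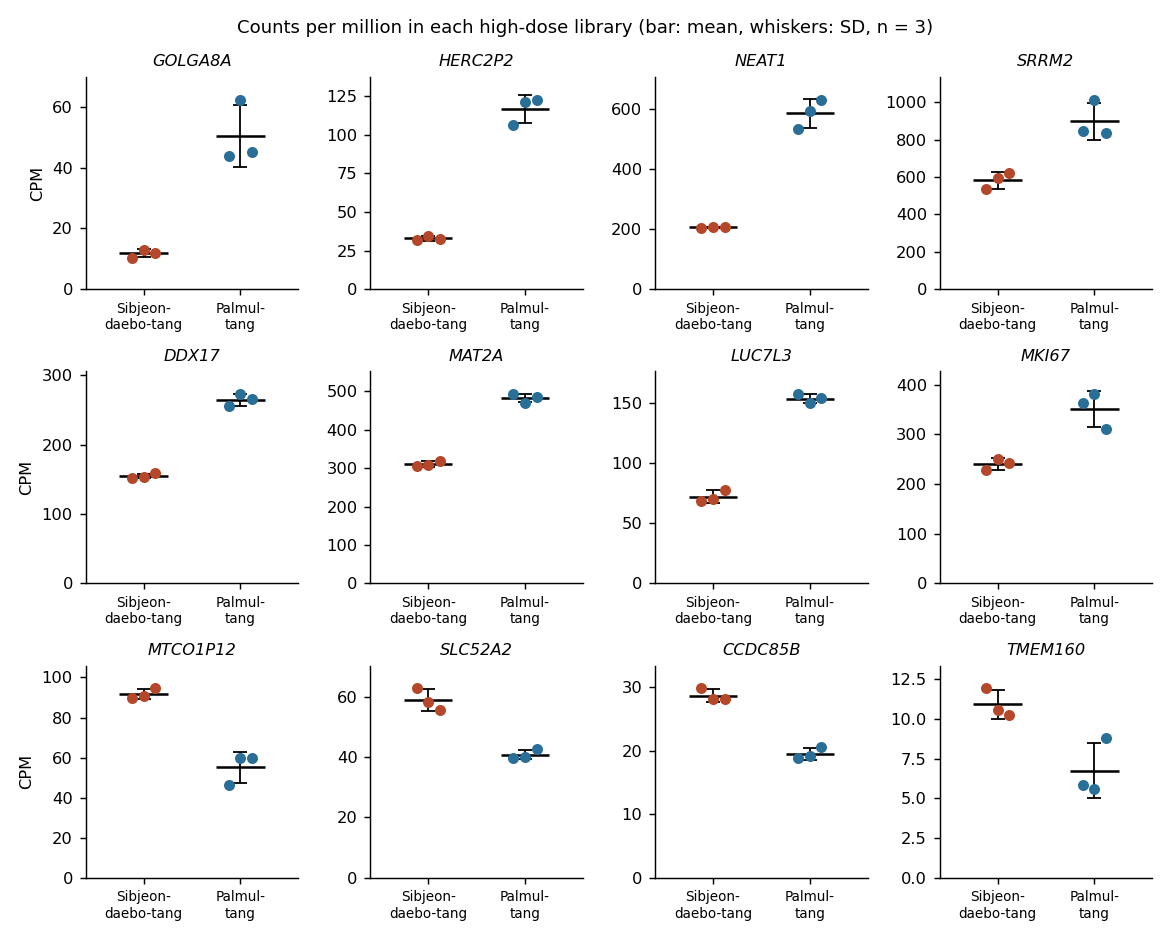
CPM of 12 genes in each high-dose library, with Sibjeondaebo-tang on the left and Palmul-tang on the right of each panel; bars are means and whiskers SDs of 3 libraries, and each vertical axis starts at 0. In all 12 panels the points of the formulas do not overlap, which the rule for naming genes required. GOLGA8A is at 10.4 to 13.1 CPM against 43.7 to 62.3 CPM and SLC52A2 at 55.5 to 62.8 CPM against 39.7 to 42.6 CPM.

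Long nuclear RNAs fell as well. NEAT1, the architectural RNA of paraspeckles at chr11:65422774-65445540, had 204.2, 205.8 and 207.5 CPM with Sibjeondaebo-tang, against 532.5, 592.6 and 628.8 CPM with Palmul-tang. The Sibjeondaebo-tang libraries were nearly equal to each other and lay far below all Palmul-tang libraries (log2 difference -1.51 ± 0.13, adjusted p = 1.06e-07). Of 19 abundant nuclear long RNAs tested, 14 (73.7%) fell and 0 rose, with a median of -0.50. TUG1, a nuclear long RNA, differed by -0.50, PVT1, transcribed beside MYC, by -0.38, and KCNQ1OT1, the imprinted antisense RNA of the KCNQ1 locus, by -0.55. MALAT1, which marks nuclear speckles, did not follow. It averaged 629.0 CPM with Sibjeondaebo-tang and 522.4 CPM with Palmul-tang (log2 difference 0.27, adjusted p = 0.0848). NORAD, a cytoplasmic long RNA of the list, differed by -0.03 without passing the test. Among snoRNA host genes, whose spliced RNAs are known substrates of decay, 6 of 26 (23.1%) fell and 0 rose, with a median of 0.0186 that was -0.0937 with library totals. SNHG12 had 7.37, 6.72 and 7.92 CPM with Sibjeondaebo-tang and 12.5, 11.2 and 14.4 CPM with Palmul-tang, a log2 difference of -0.79 with no overlap.

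By annotated class, the noncoding genes leaned downwards and the protein-coding genes as a whole did not. Abundance was not matched between the classes, and its part in the class difference was not tested. Among the 2788 protein-coding genes with the lowest mean CPM, 28 (1.0%) rose and 242 (8.68%) fell, with a median of -0.101. They held 115 of the 186 protein-coding genes at least 2-fold lower, so low-abundance protein-coding genes leaned downwards too. Of 2398 long non-coding genes tested 27 (1.13%) rose and 421 (17.6%) fell, with a median of -0.26. Pseudogenes numbered 1006, of which 21 rose and 214 (21.3%) fell, with a median of -0.20. Of 209 genes annotated as TEC, unresolved transcripts that still need experimental support, 0 rose and 50 (23.9%) fell, with a median of -0.44. Protein-coding genes numbered 13948, of which 2480 rose and 2117 fell, with a median of 0.0265. They were 78.8% of the genes tested but 40.5% of the 459 genes at least 2-fold lower, whereas long non-coding genes were 13.5% and 33.3% and pseudogenes 5.68% and 19.4%. Among pseudogenes the share lower differed between types. Transcribed unprocessed pseudogenes, which keep introns, had 116 of 258 (45.0%) lower with a median of -0.51, and processed pseudogenes, which are copied from spliced mRNA, had 41 of 507 (8.09%) lower with a median of -0.00626. Their longest transcripts had medians of 2493.5 and 801 bases, and the transcribed unprocessed type includes HERC2P2 of the duplicon list. The parts of type, length and shared reads were not tested.

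Shares of the counts were compared as well. Long non-coding genes held 0.778, 0.748 and 0.743% of the counts with Sibjeondaebo-tang, against 0.852, 0.860 and 0.924% with Palmul-tang. The groups did not overlap, and the exact two-sided permutation p of 0.1 is the smallest that 3 against 3 libraries allow. Vehicle held 1.14 to 1.18%, above both formulas here and also at 20 µg/mL, with 0.863 to 0.989% for Sibjeondaebo-tang and 0.873 to 0.946% for Palmul-tang. TEC genes held 0.0320, 0.0322 and 0.0322% with Sibjeondaebo-tang and 0.0401, 0.0436 and 0.0434% with Palmul-tang, with the same p. Pseudogenes held 0.622, 0.655 and 0.666% of all counts with Sibjeondaebo-tang and 0.730, 0.709 and 0.701% with Palmul-tang (exact permutation p = 0.1), but of the counts outside the mitochondrial genome the groups overlapped (exact permutation p = 0.2). Protein-coding genes held 79.92, 79.99 and 78.55% with Sibjeondaebo-tang and 80.76, 79.35 and 82.77% with Palmul-tang, which overlapped (exact permutation p = 0.3). RNA of the mitochondrial genome held 18.6, 18.5 and 19.9% with Sibjeondaebo-tang and 17.5, 18.9 and 15.5% with Palmul-tang, which overlapped (exact permutation p = 0.3).

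**Figure D2:**
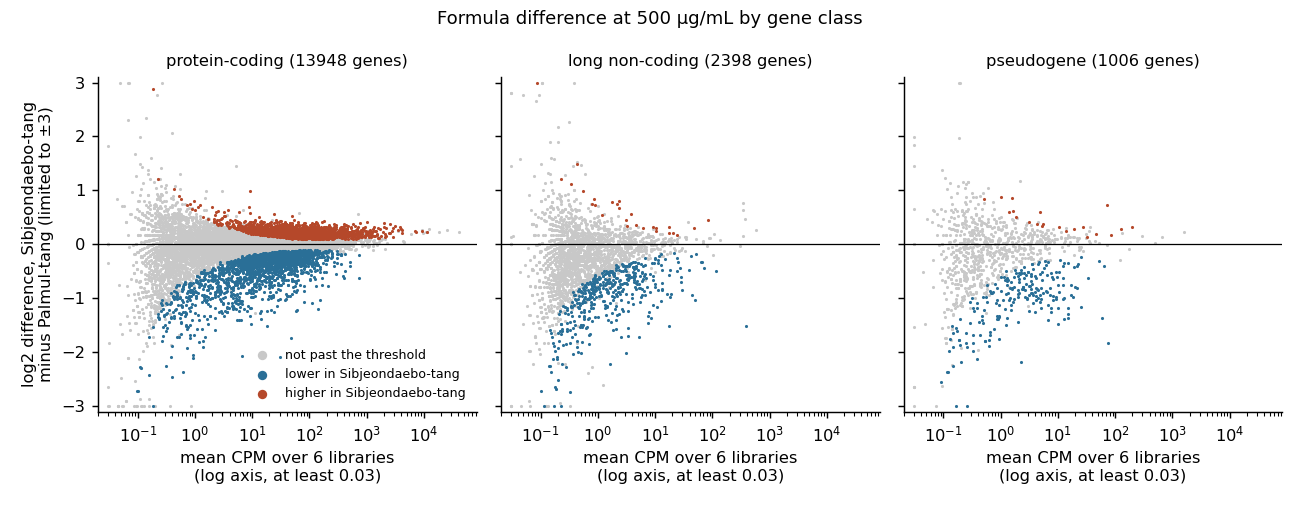
Log2 difference of each gene tested (vertical, limited to ±3) against its mean CPM over the 6 libraries (horizontal, log axis) for protein-coding genes, long non-coding genes and pseudogenes; red points passed as higher, blue points as lower, and grey points did not pass. The 2480 red and 2117 blue protein-coding genes are near balance, whereas long non-coding genes and pseudogenes have 421 and 214 blue points against 27 and 21 red ones. Abundance was not matched between the classes.

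Splicing genes were taken in separate lists, SR-type regulators and the core machinery. SR proteins bind exons and recruit the spliceosome, and CLK kinases phosphorylate them. Several of these genes are known to control their own RNA through poison exons and retained introns. Of 31 genes in this list 19 (61.3%) fell and 3 (9.68%) rose, with a median of -0.23, and with library totals 25 fell and 0 rose. LUC7L3, a U1-associated factor, had 68.4, 70.2 and 77.9 CPM with Sibjeondaebo-tang and 157.1, 149.4 and 153.7 CPM with Palmul-tang. Its libraries did not overlap, and the log2 difference was -1.09 ± 0.0599 (adjusted p = 3.89e-16). PNISR, an SR-related protein, had 32.3, 34.6 and 41.1 CPM with Sibjeondaebo-tang and 83.2, 88.1 and 80.9 CPM with Palmul-tang, a log2 difference of -1.22. RSRP1, another arginine- and serine-rich protein, had 11.4, 13.1 and 13.1 CPM with Sibjeondaebo-tang and 28.98, 29.1 and 29.8 CPM with Palmul-tang, also -1.22. CLK2 differed by -0.60, CLK1 by -0.38, SRSF5 by -0.65 and SRSF11 by -0.50. SRSF1, SRSF2 and SRSF7 differed by -0.07, -0.06 and -0.10 and did not pass, and SRSF3 rose by 0.15. SRRM2, a scaffold of nuclear speckles, had 533.5, 593.1 and 620.4 CPM with Sibjeondaebo-tang and 846.4, 1012 and 835.1 CPM with Palmul-tang (log2 difference -0.62 ± 0.12, adjusted p = 5.99e-04). In the core spliceosome 10 of 34 genes (29.4%) rose and 4 (11.8%) fell, with a median of 0.082, although with library totals 0 were higher, 11 lower and the median was -0.0291. SNRPB, a core protein of small nuclear ribonucleoproteins, differed by 0.33, and PRPF3, of the tri-snRNP, by -0.36.

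DDX17 and MAT2A were among the 8 most abundant genes that fell by at least 0.5 on the log2 scale. DDX17, an RNA helicase, had 152.7, 153.6 and 158.8 CPM with Sibjeondaebo-tang and 256.0, 273.0 and 266.1 CPM with Palmul-tang, a log2 difference of -0.77 (adjusted p = 3.93e-15). MAT2A makes the methyl donor S-adenosylmethionine and is known for a retained intron. It had 305.3, 308.2 and 319.1 CPM with Sibjeondaebo-tang and 492.0, 469.1 and 484.4 CPM with Palmul-tang, a log2 difference of -0.63 (adjusted p = 7.27e-14). In both genes the groups were separate by far more than their spread. Antisense genes overlap DDX17, MAT2A and SRRM2 in the annotation, and whether the counting used strand is not given in the sources used here.

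Lists of RNA processing and decay factors lay nearer to the 16.0% lower and 14.3% higher of all genes, and held a few large falls. Of 21 nonsense-mediated decay factors 7 (33.3%) fell and 2 (9.52%) rose. The kinase SMG1, which starts that decay by phosphorylating UPF1, had 96.2, 96.3 and 95.9 CPM with Sibjeondaebo-tang and 142.8, 149.6 and 147.4 CPM with Palmul-tang, a log2 difference of -0.61. Copies of SMG1 are in the duplicon list, so reads may be shared between them and the level of SMG1 itself is uncertain. UPF3B and UPF2 of the same pathway differed by -0.61 and -0.44. Of 24 nuclear exosome genes and cofactors 6 (25.0%) fell and 2 (8.33%) rose. ZFC3H1, which links polyadenylated nuclear RNA to the exosome, had 26.9, 27.9 and 29.04 CPM with Sibjeondaebo-tang and 53.7, 55.2 and 54.4 CPM with Palmul-tang, a log2 difference of -0.96 without overlap. Of 25 mRNA export genes 5 (20.0%) fell and 6 (24.0%) rose. DDX39B, the helicase that loads export factors, differed by -0.75 and THOC2, its partner in the TREX complex, by -0.52, whereas ALYREF, an adaptor of the same complex, differed by 0.21. Of 22 cleavage and polyadenylation genes 5 (22.7%) fell and 4 (18.2%) rose, with RBBP6 at -0.57 and PCF11 at -0.47. Of 39 Mediator and elongation genes 7 (17.9%) fell and 3 (7.69%) rose, led by the cyclin CCNL2, which had 35.5, 33.6 and 36.2 CPM with Sibjeondaebo-tang and 76.8, 82.0 and 89.7 CPM with Palmul-tang (log2 difference -1.24). With library totals these 5 lists had 9, 13, 10, 9 and 16 members lower and 0, 1, 0, 0 and 1 higher, in the order given.

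Chromatin modifiers fell by less and in 1 direction. Of 40 tested 19 (47.5%) fell and 0 rose, with a median of -0.17. KMT2A, a histone H3 lysine 4 methyltransferase, had 48.4, 48.6 and 51.8 CPM with Sibjeondaebo-tang and 67.2, 68.5 and 63.0 CPM with Palmul-tang, a log2 difference of -0.42. EZH2, which methylates histone H3 lysine 27, differed by -0.41, and the remodellers CHD7 and CHD2 by -0.40 and -0.39. The longest annotated transcripts of this list had a median of 8575.5 bases. Zinc finger genes named ZNF had 120 of 435 (27.6%) lower and 21 (4.83%) higher, with a median of -0.11. With library totals 171 of them were lower, 6 higher and the median was -0.223.

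Cell cycle genes were described in a list for mitosis and a list for replication. Of 36 mitosis genes 11 (30.6%) fell and 3 (8.33%) rose, and the median was -0.0305. With library totals 17 fell, 1 rose and the median was -0.142. MKI67, the proliferation antigen that coats mitotic chromosomes, had 227.7, 250.9 and 243.5 CPM with Sibjeondaebo-tang and 362.6, 381.3 and 310.7 CPM with Palmul-tang (log2 difference -0.55). CENPE, a kinetochore motor, had 20.97, 21.6 and 21.7 CPM with Sibjeondaebo-tang and 38.4, 34.5 and 32.7 CPM with Palmul-tang (log2 difference -0.72). Neither gene overlapped between groups. CDC20 and BIRC5, an activator and a chromosomal passenger protein of mitosis, differed by 0.17 and 0.36. The 11 lower mitosis genes had a median transcript length of 6419 bases and the 3 higher ones of 1948 bases. Of 36 DNA replication genes 12 (33.3%) rose and 3 (8.33%) fell, with a median of 0.104, but with library totals 0 rose, 8 fell and the median was -0.00857. MCM2 of the replicative helicase differed by 0.19, and POLE, the catalytic subunit of a leading-strand polymerase, by -0.26.

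**Figure D3:**
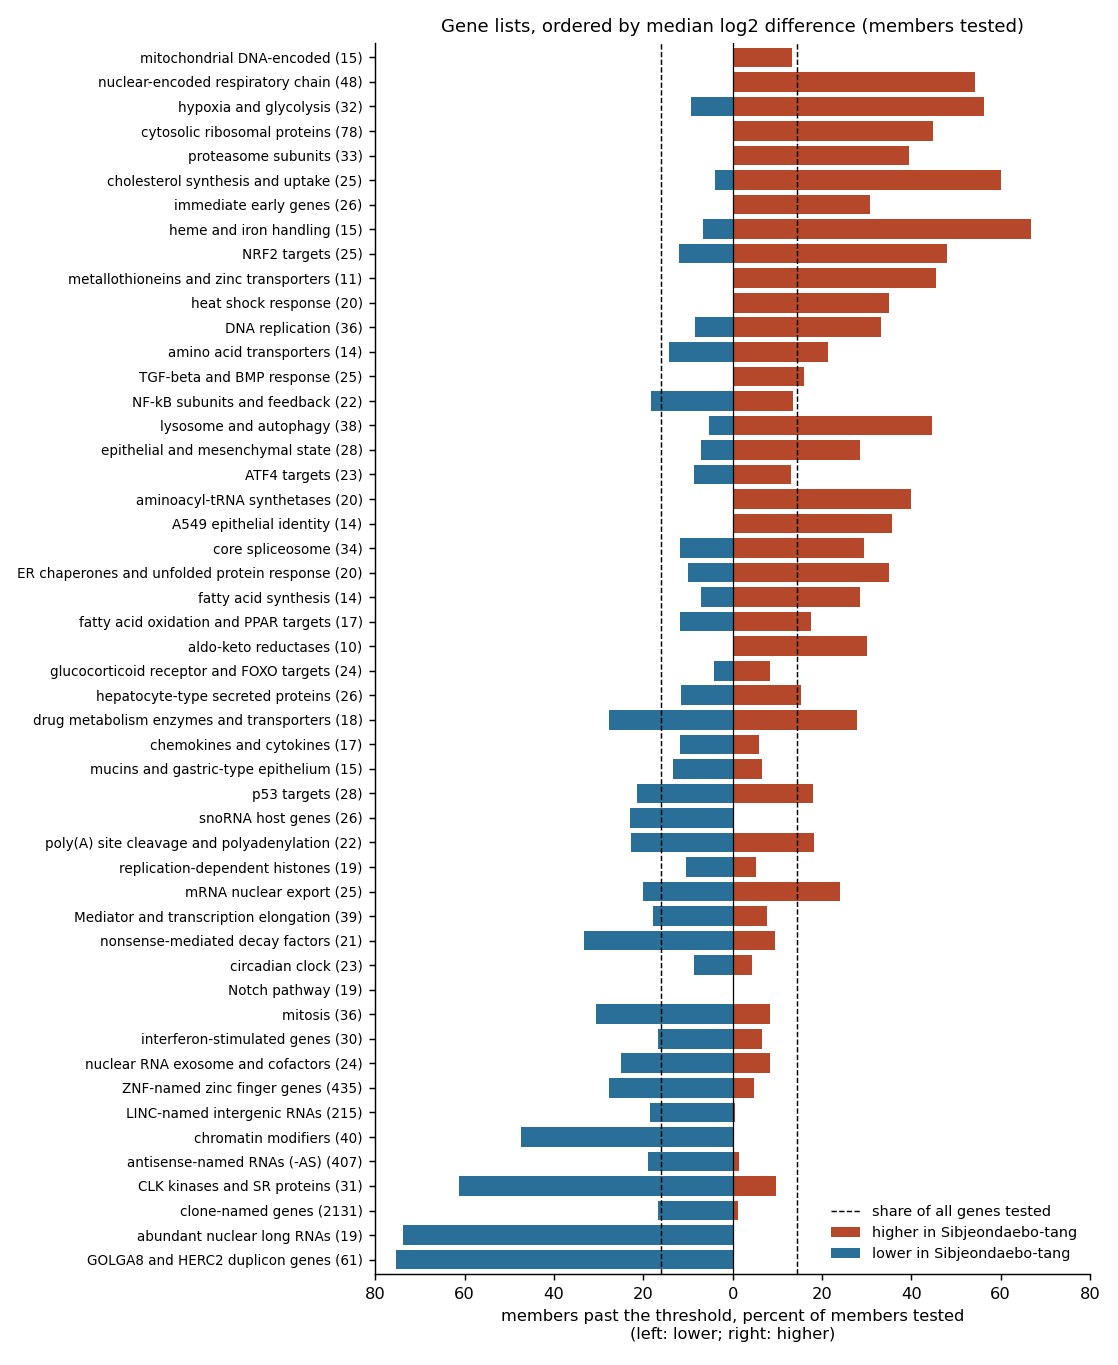
Share of the tested members of 50 gene lists and name patterns with at least 10 tested members that passed the threshold, to the right for higher and to the left for lower with Sibjeondaebo-tang, ordered by the median log2 difference; dashed lines mark the 14.3% and 16.0% of all genes tested. Duplicon genes, nuclear long RNAs, SR proteins and chromatin modifiers extend to the left, and cholesterol, heme and iron, glycolysis and respiratory chain genes to the right. The lists were chosen with earlier results of these data known.

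Genes that rose did so by less. Of those eligible to be named, the largest rise was MTCO1P12, a nuclear copy of the mitochondrial cytochrome oxidase gene MT-CO1 at chr1:631074-632616. It had 89.9, 90.8 and 94.6 CPM with Sibjeondaebo-tang, against 46.4, 59.8 and 59.6 CPM with Palmul-tang (log2 difference 0.73, adjusted p = 6.00e-04). Its sequence is near that of the mitochondrial gene, so reads may be shared between them. BCYRN1, a short cytoplasmic RNA, had 141.2, 106.6 and 138.0 CPM with Sibjeondaebo-tang and 81.2, 65.8 and 88.6 CPM with Palmul-tang (log2 difference 0.71, adjusted p = 0.0352). The groups were apart, but the call ended with library totals (adjusted p = 0.0680) and on leaving out Palmul-tang replicate 1 or 2 or Sibjeondaebo-tang replicate 1 or 3. TMEM160, a mitochondrial membrane protein, had 11.9, 10.6 and 10.2 CPM with Sibjeondaebo-tang and 5.87, 5.60 and 8.77 CPM with Palmul-tang (log2 difference 0.69). CCDC85B had 29.8, 28.1 and 28.1 CPM with Sibjeondaebo-tang and 18.8, 19.1 and 20.6 CPM with Palmul-tang, a log2 difference of 0.56. The riboflavin transporter SLC52A2 had 62.8, 58.3 and 55.5 CPM with Sibjeondaebo-tang and 39.7, 40.1 and 42.6 CPM with Palmul-tang, a log2 difference of 0.53 (adjusted p = 8.87e-08). In these 3 genes too the groups did not overlap. An antisense gene overlaps SLC52A2.

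A minority of the ribosomal protein genes passed, and those that did rose by small amounts. They encode the proteins of the cytosolic ribosome and are known for a pyrimidine run at the start of transcription, the 5′ terminal oligopyrimidine motif, through which their translation is controlled. Of 78 tested 35 (44.9%, against 14.3% of all genes) rose and 0 fell, with a median of 0.185. These genes are abundant and their longest transcripts had a median of 1841.5 bases. Among the 2788 most abundant protein-coding genes 39.2% rose, and among the 2789 with the shortest transcripts 29.4%, so much of the gap to all genes is not particular to this list. With library totals 3 rose, 1 fell and the median was 0.0719. RPSA had 1493, 1426 and 1410 CPM with Sibjeondaebo-tang and 1230, 1085 and 1231 CPM with Palmul-tang (log2 difference 0.29). RPS2 had 3650, 3827 and 3854 CPM with Sibjeondaebo-tang and 3207, 3172 and 3040 CPM with Palmul-tang (log2 difference 0.27). Neither overlapped between the formulas, and both kept their call with library totals. RPS3, RPS16 and RPL18 differed by 0.24, 0.24 and 0.25, and RPS16 and RPL18 lost their call with library totals.

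The start of transcription is shown for 4 of these ribosomal protein genes and for 4 lower genes of RNA processing, because the run of pyrimidines is visible there. Each window holds 15 bases before the RefSeq start and 15 from it (GRCh38.p14, 5′ to 3′ on the gene's strand). Capitals mark an unbroken run of C and T that begins with C at the start and holds at least 4 further bases. RPSA lies at chr3:39406705-39406734 (plus), RPL18 at chr19:48619164-48619193 (minus), RPS16 at chr19:39435935-39435964 (minus) and RPS3 at chr11:75399503-75399532 (plus). LUC7L3 lies at chr17:50719588-50719617 (plus), PNISR at chr6:99425294-99425323 (minus), RSRP1 at chr1:25338240-25338269 (minus) and DDX39B at chr6:31541989-31542018 (minus).
RPSA: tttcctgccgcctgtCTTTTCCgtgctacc
RPL18: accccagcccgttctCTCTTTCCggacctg
RPS16: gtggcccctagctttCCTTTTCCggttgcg
RPS3: gcccgcgagccacttCCTTTCCTTTCagcg
LUC7L3: cgcggcggccattttgtcttgtcggctcct
PNISR: gacaaatcgggcgccatcttgtcttgttcc
RSRP1: ggagccacgcccaccacaacaacgcgtctg
DDX39B: accggaagtgaaggcagatttccctccttc
None of the last 4 windows has the run at its start. The run stands at the start of 1429 of 35116 RefSeq promoters (4.07%). Counted by gene, where any promoter of the gene could hold it, 46 of the 62 listed ribosomal protein genes with a RefSeq promoter had it (74.2%). The units differ, so these shares are not directly comparable. The 46 ribosomal protein genes with the run had 21 higher (45.7%) and a median log2 difference of 0.195, and the 16 without it had 5 higher (31.2%) and a median of 0.165. Among other protein-coding genes, 748 with the run had 182 higher (24.3%), 105 lower (14.0%) and a median of 0.0548. The 10034 without it had 1776 higher (17.7%), 1606 lower (16.0%) and a median of 0.0234. These are descriptions of letters in a window, and a RefSeq start can differ from the start used in these cells.

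Of the nuclear-encoded genes of mitochondrial respiration a majority passed as higher. The respiratory chain passes electrons to oxygen and drives ATP synthesis. Of 48 nuclear-encoded subunits 26 (54.2%) rose and 0 fell, with a median of 0.205, and with library totals 4 rose, 0 fell and the median was 0.0922. Their longest transcripts had a median of 1585.5 bases. Of the protein-coding genes with the shortest transcripts 29.4% rose, and of the most abundant 39.2%, so part of the gap to all genes is not particular to this list. ATP5MC3, a subunit of the ATP synthase rotor, had 322.1, 305.8 and 295.1 CPM with Sibjeondaebo-tang and 241.5, 216.9 and 252.6 CPM with Palmul-tang (log2 difference 0.38). COX5A of cytochrome oxidase had 185.2, 189.9 and 194.0 CPM with Sibjeondaebo-tang and 162.5, 156.4 and 159.5 CPM with Palmul-tang (log2 difference 0.25). The groups did not overlap in either. Of 15 genes on the mitochondrial genome 2 (13.3%) rose and 0 fell, with a median of 0.236. One was MT-ND4L, a complex I subunit, at 2225, 2183 and 2349 CPM with Sibjeondaebo-tang and 1537, 1896 and 1725 CPM with Palmul-tang (log2 difference 0.39). With library totals 1 of the 15 rose, 0 fell and their median was 0.127.

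Glycolysis turns glucose into pyruvate, and many of its enzymes are known hypoxia targets. Of 32 hypoxia and glycolysis genes 18 (56.2%) rose and 3 (9.38%) fell, with a median of 0.185. With library totals 4 rose, 4 fell and the median was 0.0722. The aldolase ALDOA averaged 2216 ± 6.42 CPM with Sibjeondaebo-tang and 1775 ± 34.0 CPM with Palmul-tang (SD, n = 3 each), a log2 difference of 0.32. The enolase ENO1 had 3373, 3243 and 3122 CPM with Sibjeondaebo-tang and 2622, 2499 and 2744 CPM with Palmul-tang, a log2 difference of 0.31. PGAM1, the next enzyme upstream, also differed by 0.31. VEGFA, the angiogenic factor induced by hypoxia, was lower by contrast, at -0.29.

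NRF2 is the transcription factor of oxidative defence and is constitutively active in A549 cells, which carry mutant KEAP1. Of 25 NRF2 targets 12 (48.0%) rose and 3 fell, with a median of 0.128, and with library totals 3 rose, 6 fell and the median was 0.0156. The 3 that fell included the export pumps ABCC2 and ABCC3. ABCC2 had 343.3, 346.9 and 350.7 CPM with Sibjeondaebo-tang and 494.1, 483.4 and 488.4 CPM with Palmul-tang, a log2 difference of -0.49 with both groups tight and far apart. ABCC3 differed by -0.32. Of 15 heme and iron genes 10 (66.7%) rose and 1 fell, with a median of 0.139, against 2 and 2 with library totals. HMOX1, which degrades heme, had 80.4, 89.9 and 83.1 CPM with Sibjeondaebo-tang and 69.2, 65.5 and 67.1 CPM with Palmul-tang (log2 difference 0.33, adjusted p = 1.01e-05). FTH1, the ferritin heavy chain, had 7129, 7689 and 8332 CPM with Sibjeondaebo-tang and 6564, 6564 and 6260 CPM with Palmul-tang (log2 difference 0.26). Neither overlapped.

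Amino acid and sterol genes gave moderate differences. The glutamine transporter SLC1A5 had 337.3, 327.9 and 320.1 CPM with Sibjeondaebo-tang and 249.0, 247.2 and 267.4 CPM with Palmul-tang (log2 difference 0.37). SLC7A5, the large neutral amino acid transporter, had 1520, 1574 and 1458 CPM with Sibjeondaebo-tang and 1187, 1252 and 1184 CPM with Palmul-tang (log2 difference 0.33). Both were apart between the formulas, whereas SLC7A6, a transporter of cationic and neutral amino acids, differed by -0.45. In all, 3 of 14 amino acid transporters (21.4%) rose and 2 (14.3%) fell, against 2 and 3 with library totals. Of 20 aminoacyl-tRNA synthetases 8 (40.0%) rose and 0 fell, led by VARS, the valyl-tRNA synthetase, at 0.28, with a median of 0.0942 that became -0.0176 with library totals, where 1 rose and 2 fell. Of 25 cholesterol genes 15 (60.0%) rose and 1 fell, with a median of 0.144, and with library totals 2 rose and 1 fell. MSMO1, a sterol demethylation enzyme, had 80.7, 68.6 and 74.4 CPM with Sibjeondaebo-tang and 60.7, 58.5 and 63.7 CPM with Palmul-tang (log2 difference 0.29). Its groups did not overlap.

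Protein turnover lists held rises that depended on the scaling. Of 33 proteasome subunits 13 (39.4%) rose and 0 fell with a median of 0.147, although with library totals 0 rose and 3 fell. Of 38 lysosome and autophagy genes 17 (44.7%) rose and 2 (5.26%) fell with a median of 0.101, which was -0.0117 with library totals, where 3 rose and 5 fell. The lysosomal protease CTSD had 692.3, 719.7 and 706.3 CPM with Sibjeondaebo-tang and 552.0, 573.4 and 552.9 CPM with Palmul-tang (log2 difference 0.34). The keratin KRT8 had 4264, 4317 and 4194 CPM with Sibjeondaebo-tang and 3418, 3446 and 3396 CPM with Palmul-tang (log2 difference 0.32). Both genes were apart between groups and kept their call with library totals. Heat shock genes had 7 of 20 higher and 0 lower, and endoplasmic reticulum chaperones had 7 of 20 higher and 2 lower. With library totals the heat shock genes had 0 higher and 2 lower, and the chaperones 1 higher and 5 lower. Their medians of 0.108 and 0.0733 became -0.00275 and -0.0384 with library totals. Of 14 A549 identity genes 5 (35.7%) rose, KRT8 among them, and 0 fell, whereas with library totals 1 rose and 2 fell.

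Drug-metabolizing genes had members moving both ways. Of 18 tested 5 (27.8%) rose and 5 fell, with a median of 0.0308. With library totals 1 rose, 7 fell and the median was -0.0813. CYP3A5, a steroid and drug hydroxylase, had 12.96, 14.4 and 14.9 CPM with Sibjeondaebo-tang and 24.9, 27.2 and 25.6 CPM with Palmul-tang (log2 difference -0.88). CYP4F3, a leukotriene and fatty acid hydroxylase, had 37.9, 38.7 and 40.3 CPM with Sibjeondaebo-tang and 59.6, 62.4 and 60.6 CPM with Palmul-tang (log2 difference -0.64). Both were far apart between the formulas. CYP24A1, which inactivates vitamin D, differed by -0.39, and POR, the electron donor of these enzymes, by 0.23. Of 9 aryl hydrocarbon receptor targets 1 rose and 1 fell, and 0 and 3 with library totals.

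Signalling lists held few calls, or calls in both directions, apart from the immediate early genes. Of 19 Notch pathway genes 0 passed in edgeR or DESeq2 and 0 had an unadjusted p under 0.05, with a median of -0.025, although 4 were lower with library totals. Interferon-stimulated genes had 2 of 30 higher (6.67%) and 5 lower (16.7%), which was 0 and 8 with library totals, and STAT2, which carries the interferon signal, differed by -0.50. Among NF-kB subunits and feedback genes 3 of 22 (13.6%) rose and 4 (18.2%) fell, and 1 and 6 with library totals. TRAF1, an adaptor of TNF receptors, had 2.88, 4.12 and 4.06 CPM with Sibjeondaebo-tang and 7.18, 7.99 and 7.46 CPM with Palmul-tang (log2 difference -1.03), and the inhibitor TNFAIP3 differed by -0.47. The p53 targets had 5 of 28 higher (17.9%) and 6 lower (21.4%), near the 14.3% and 16.0% of all genes, and 1 higher and 11 lower with library totals. Among them MDM4, a p53 inhibitor, differed by -0.72. Immediate early genes had 8 of 26 (30.8%) higher and 0 lower, with a median of 0.140, and 1 higher with library totals.

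The direction of a protein-coding gene went with its length and structure. Genes were divided into 5 equal bins by the longest annotated transcript. In the bin with the shortest transcripts, of 207 to 2123 bases, 29.4% of genes were higher and 4.27% lower, and in the bin with the longest, of 5911 to 109200 bases, 6.64% were higher and 28.3% lower. The median log2 difference was 0.131 in the shortest bin and -0.0745 in the longest. With library totals these medians were 0.0187 and -0.187, so the order stayed while the sign in the middle moved. Genes with 17 or more exons were lower in 30.4% of cases, against 8.58% of genes with 1 to 4. Genes with an annotated retained-intron transcript were lower in 19.2% of cases, against 10.1% without, and higher in 18.2% against 17.3%. Within the longest bin 32.8% and 21.2% were lower and 6.81% and 6.36% higher. Within the shortest bin 5.62% and 3.23% were lower and 34.7% and 25.3% higher. By GC content, 12.3% of the lowest bin and 28.7% of the highest were higher. Abundance moved with the calls too, since 1.00% of genes in the lowest bin of mean CPM and 39.2% in the highest passed as higher. These properties are tied to each other and to the power of the test, and the part of RNA quality, length or intron content in the gene differences was not tested.

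**Figure D4:**
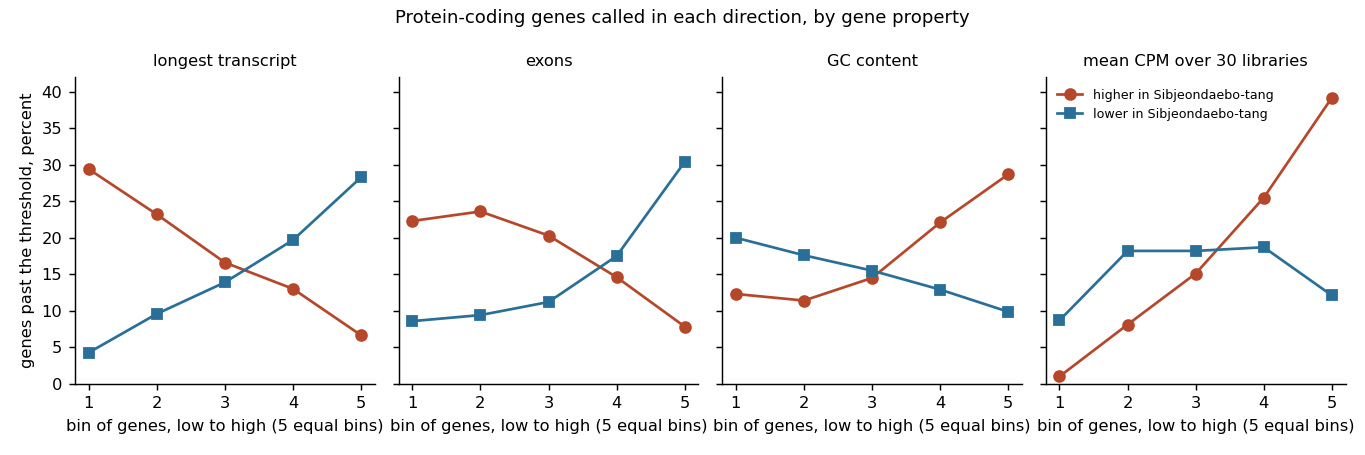
Percent of protein-coding genes that passed as higher (red) or lower (blue) with Sibjeondaebo-tang, in 5 bins of genes from low to high by longest annotated transcript, exon number, GC content and mean CPM over the 30 libraries. Along transcript length the higher share runs from 29.4% to 6.64% and the lower share from 4.27% to 28.3%.

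At lower doses the same formulas could hardly be told apart. At 20 µg/mL 0 of 17701 genes passed in edgeR, with 426 at an unadjusted p under 0.05 and 0 by DESeq2. At 100 µg/mL 0 passed in edgeR, with 453 unadjusted and 1 by DESeq2. In a test of the difference at 500 µg/mL minus that at 20 µg/mL, 2634 genes (14.9%) passed. They included 310 of the 459 genes at least 2-fold lower, 1609 of the 2829 lower and 960 of the 2531 higher. Those sets were chosen by the difference at 500 µg/mL, which this test contains, so that choice favoured passing. The median log2 difference of the 459 was -0.00648 at 20, -0.108 at 100 and -1.31 at 500 µg/mL, where the last is the value that chose them.

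Levels in the dose series and in vehicle are given as a description, since which formula stands apart can depend on whether vehicle or the low dose is the baseline. GOLGA8A averaged 61.5 ± 7.80 CPM in vehicle. With Sibjeondaebo-tang it averaged 53.6 ± 4.30, 45.7 ± 4.65 and 11.8 ± 1.33 CPM at 20, 100 and 500 µg/mL, and with Palmul-tang 60.9 ± 6.04, 54.3 ± 5.44 and 50.4 ± 10.3 CPM (SD, n = 3 each). Only at 500 µg/mL were the formulas further apart than their SDs by a wide margin. LUC7L3 averaged 149.0 CPM in vehicle, 154.8, 140.9 and 72.2 CPM with rising Sibjeondaebo-tang and 158.1, 152.9 and 153.4 CPM with rising Palmul-tang. NEAT1 averaged 580.4 CPM in vehicle, 664.5, 542.2 and 205.8 CPM with rising Sibjeondaebo-tang and 642.6, 608.4 and 584.6 CPM with rising Palmul-tang. For these lower genes the Palmul-tang level at 500 µg/mL lay near vehicle and the Sibjeondaebo-tang level below it. Over the 459 genes the median log2 ratio to vehicle was -0.746 with Sibjeondaebo-tang and 0.0209 with Palmul-tang, and to the formula's own low dose -0.764 with Sibjeondaebo-tang and -0.0226 with Palmul-tang. Of them 452 (98.5%) were below vehicle with Sibjeondaebo-tang and 214 (46.6%) with Palmul-tang. Over all genes tested these shares were 53.9% with Sibjeondaebo-tang and 49.9% with Palmul-tang. The 459 were chosen as lower with Sibjeondaebo-tang, which favours a high share there.

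The higher genes had another course. SLC52A2 averaged 55.5 CPM in vehicle, 43.9, 44.3 and 58.9 CPM with rising Sibjeondaebo-tang and 42.1, 43.7 and 40.8 CPM with rising Palmul-tang. KRT8 averaged 4321 CPM in vehicle, 3540, 3621 and 4258 CPM with rising Sibjeondaebo-tang and 3564, 3547 and 3420 CPM with rising Palmul-tang. In both, the level at 500 µg/mL of Sibjeondaebo-tang was near vehicle, and that of Palmul-tang stayed near the lower doses. HMOX1 was above vehicle with both, at 53.2 CPM in vehicle, 84.5 CPM with Sibjeondaebo-tang at 500 µg/mL and 67.3 CPM with Palmul-tang at 500 µg/mL. Over the 2531 higher genes the median log2 ratio to vehicle was 0.102 with Sibjeondaebo-tang and -0.117 with Palmul-tang. The median log2 ratio to the formula's own low dose was 0.218 with Sibjeondaebo-tang and 0.0162 with Palmul-tang. CYP3A5 was lower at 500 µg/mL of Sibjeondaebo-tang and was near vehicle there, with 16.5 CPM in vehicle, 26.9, 24.1 and 14.1 CPM with rising Sibjeondaebo-tang and 25.7, 25.0 and 25.9 CPM with rising Palmul-tang. These gene sets were chosen by the difference between the formulas, so their levels beside vehicle are a description.

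**Figure D5:**
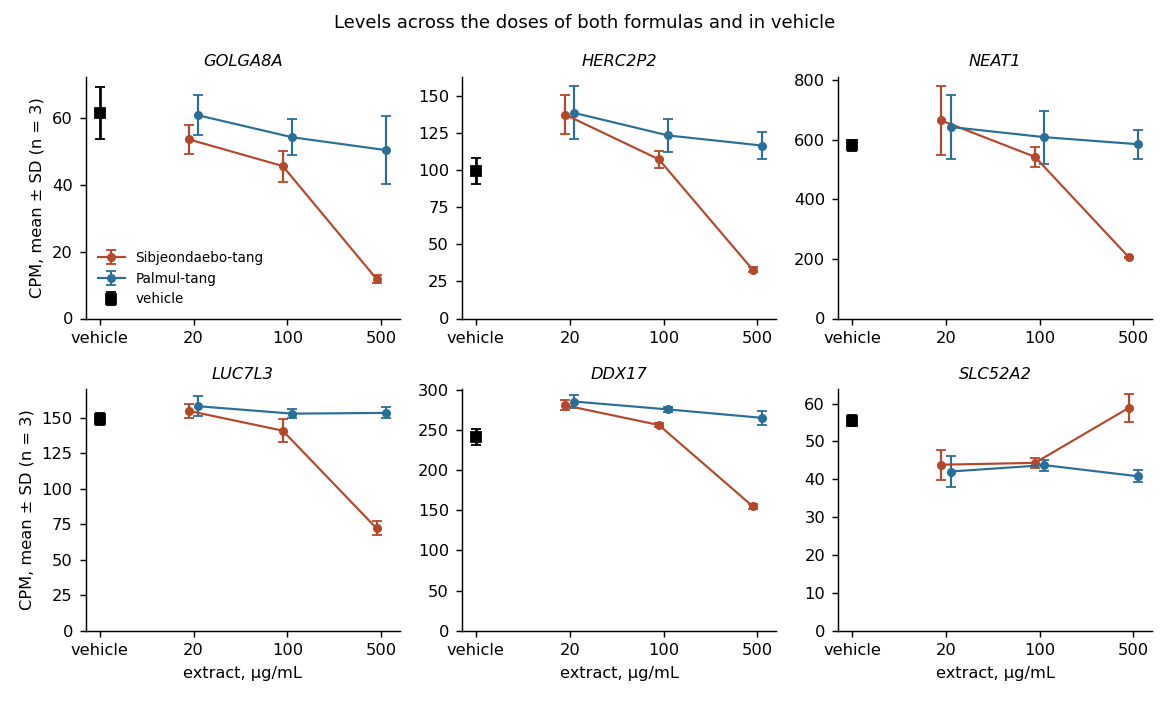
Mean CPM ± SD (n = 3 libraries) of 6 genes in vehicle (black square) and at 20, 100 and 500 µg/mL of Sibjeondaebo-tang (red) and Palmul-tang (blue); the vertical axes start at 0. The red and blue points lie close at 20 µg/mL and part at 500 µg/mL, where GOLGA8A is at 11.8 against 50.4 CPM and SLC52A2 at 58.9 against 40.8 CPM.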

How the data were processed

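RNA-seq of A549 cells was analysed in 30 libraries, whose labels place them in 13 groups of formula and dose. Per the labels, total RNA had an RIN over 7, and directional MGI libraries were read as 100 bp pairs. Per the submitters' processing notes the authors used FastQC 0.11.9, Trim Galore 0.6.5, STAR 2.7.3a, RSEM 1.3.3 and GRCh38. The annotation release and the strand setting are not given in the sources used here. The authors deposited expected counts from RSEM, in which reads shared by several genes are divided among them. Values that are not whole made up 8.50 to 9.82% of each library, and all were rounded before testing. The table has 60675 genes, and 240 columns of other samples in it were not used.

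All 30 libraries (23986637 to 35159898 counts) were fitted in 1 model of group means with edgeR 4.0.16 in R 4.3.3 (filterByExpr, TMM, robust quasi-likelihood F test), with a common dispersion of 0.00246 on 17 residual degrees of freedom. P-values were adjusted by Benjamini-Hochberg over the 17701 genes kept, with a threshold of 0.05. SEs are the log2 difference divided by the square root of F. The script was tested on simulated data. TMM factors of the 6 libraries were 0.923 to 1.03. Levels beside vehicle used a pseudocount of 0.5 CPM. Classes, transcripts and coordinates came from GENCODE 29 (GRCh38), and start sequences from RefSeq (GRCh38.p14).

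Genes were named where they passed, had a mean log2 CPM of at least 2 and no overlap between groups. The 10 largest in each direction were eligible, with the 8 largest protein-coding, the largest noncoding (6 lower and 4 higher long non-coding genes, and as many pseudogenes) and the 8 most abundant with a difference of at least 0.5. Up to 6 members of each of 49 lists by smallest adjusted p were added, and other members are named with their values. A few genes are not reported here. The members and lists were chosen with earlier results of these data known. Lists are described by counts and medians beside the shares over all genes.

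Replicate numbers are shared between the formulas. Deviations from the group mean correlated at -0.248 to 0.224 over the 3 same-number pairs and at -0.387 to 0.365 over the 6 others, so the numbers were not used as pairs. No pair of replicates was close enough to be 1 library, with a mean chi-square per gene of 4.71 to 20.4. Alternatives were DESeq2 1.42.0, RLE size factors, TMM from protein-coding genes, library totals, no filter, a fit of only the 6 libraries, the replicate block, thinned counts and leaving out each library.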

Additional observations from a re-analysis of the deposited data

Results flagged for a closer look

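A test of the interaction, the difference between Sibjeondaebo-tang and Palmul-tang at 500 µg/mL minus that at 20 µg/mL, passed in 2634 genes by edgeR. It was examined by name in the 4 genes with the largest fall and the 4 with the largest rise. These were chosen by their difference at 500 µg/mL, which is part of the interaction, so that choice favoured passing. The change of the difference was -1.91 ± 0.21 (SE) for GOLGA8A, -1.98 ± 0.25 for SEC31B, -1.81 ± 0.14 for HERC2P2 and -1.77 ± 0.16 for GOLGA8B on the log2 scale, with adjusted p from 7.10e-08 to 1.59e-05. It was 0.695 ± 0.196 for MTCO1P12 (adjusted p = 0.0227) and 0.664 ± 0.152 for SPATA2L (adjusted p = 0.00264). It did not pass for BCYRN1 (0.651, adjusted p = 0.237) or TMEM160 (0.429, adjusted p = 0.184), whose difference at the high dose alone did. SRRM2 fell at 500 µg/mL and missed the threshold of this interaction (adjusted p = 0.0604).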

How the results depend on the processing

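Under library totals the counts became 454 higher and 4591 lower. That scaling moved the differences downwards as a whole, to a median of -0.113. The 2829 lower genes, the 459 that were at least 2-fold lower among them, therefore kept their call by construction. Of the 2829, 2304 stayed lower with DESeq2, 2549 in the fit of only the 6 libraries and 2008 to 2404 on leaving out 1 library. The split was 2003 higher and 3094 lower with TMM from protein-coding genes, 2404 and 2326 with DESeq2, 3128 and 2340 without the filter, and 2834 and 2348 with thinned counts. Leaving out 1 library gave 4149 to 4999 called genes, 1902 to 2686 higher and 2062 to 2561 lower, 357 to 478 at least 2-fold lower, and 2242 to 2664 in the interaction. The 7 genes at least 2-fold higher became 3 with DESeq2 and with library totals, 21 without the filter, and 7 to 21 on leaving out 1 library, with 21 without Palmul-tang replicate 3, 11 without Sibjeondaebo-tang replicate 1 and 12 without Sibjeondaebo-tang replicate 2. At 100 µg/mL 1 gene passed with DESeq2 and 2 without the filter, and at 20 µg/mL 1 without the filter.

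The median of protein-coding genes, 0.0265, was 0.0315 with DESeq2, 0.0316 with RLE factors, 0.00656 with TMM from protein-coding genes, -0.0851 with library totals, 0.0578 without the filter, 0.024 in the fit of 6 libraries, 0.0463 with thinned counts and 0.0281 to 0.0516 on leaving out 1 library. That of long non-coding genes, -0.264, was -0.284, -0.376, -0.233, -0.235 and -0.243 with TMM from protein-coding genes, library totals, no filter, 6 libraries and thinned counts, and -0.276 to -0.242 on leaving out 1. That of TEC genes, -0.442, was -0.462, -0.555, -0.411, -0.399 and -0.403 under the same settings and -0.484 to -0.377. That of pseudogenes, -0.195, was -0.214 with TMM from protein-coding genes, -0.306 with library totals, -0.163 without the filter and -0.201 to -0.169. The protein-coding share of counts differed by -1.47 percentage points, and by 0.209 outside the mitochondrial genome. With library totals the named genes STIP1 (-0.00194) and ACLY (-0.0153) changed sign. For each of these changes the cause was not tested.

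Of the 258 named genes 112 lost their call under some alternative, 102 of them higher genes with library totals, 43 under any other, and 41 on leaving out 1 library. With the replicate block 5437 genes passed, and 2773 in the interaction. Each value rests on 3 libraries a group.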
